A study of Drosophila melanogaster with 12 samples.

Results

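The digestive enzymes of the adult fly were followed through 33 probe sets of the Affymetrix Drosophila Genome 2.0 array, out of 18769 probe sets tested. A member was any probe set that the array's gene annotation gives a single gene, with a symbol that begins with Jon, Mal-A, Mal-B or Amy or ends in Try. Of 11982 genes with a probe set of their own, the rule found 33, with 13 Jonah proteases, 9 trypsins, 10 maltases and 1 amylase, *Amyrel*, each measured by 1 probe set, and no member was lost to a filter. A further probe set is shared by *Amy-p* and *Amy-d* and was therefore left out, and its values are given separately below. RNA came from mated *Drosophila melanogaster* females aged 4 days, taken 3 h after mating, and was split into abdomen (ovaries, genital tract, fat and most of the gut) and the remaining head/thorax. The 4 groups had 3 arrays each. Mutant samples held tissue of 12 females of the genotype *loj* 00898/*loj* 04026, which lacks most function of *logjam* (*loj*), a gene for a p24 protein of secretory transport vesicles. Control samples pooled 6 *loj* 00898/+ and 6 *loj* 04026/+ females, so every control female also carried 1 mutant allele, and no wild-type group is among the samples. Each array measured a separate RNA extraction.

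Food protein is cut in the insect midgut by secreted serine proteases. Trypsins cleave after lysine and arginine, and the Jonah genes encode midgut endopeptidases of the same chymotrypsin fold. Starch is split by amylases into maltose and short glucose chains, which maltases (alpha-glucosidases at the midgut surface) break down to glucose; maltases also split sucrose. Each class is encoded by tandem gene families, and different regions of the midgut secrete different members. The crop and most of the midgut lie in the abdomen, while the foregut, the proventriculus and the front end of the midgut lie in the thorax.

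Signal is in the linear intensity units of the deposited table, and differences are given on the log2 scale with intensities under 1 set to 1. The background level of an array, under which 95% of its 27 *Bacillus subtilis* control probe sets lie, was between 76.8 and 131 for abdomen arrays and between 126 and 256 for head/thorax arrays. The targeted gene followed its label: *loj* itself read 921 to 1220 on the 6 control arrays and 30.9 to 43.2 on the 6 *loj* arrays. Markers of the 2 body parts were well separated. The 7 eggshell genes summed to 23010 to 43950 in abdomen and were above background on 0 of the head/thorax arrays, and the 3 photoreceptor genes summed to 31900 to 33700 in head/thorax and were above background on 0 of the abdomen arrays. The 3 enterocyte genes summed to between 1287 and 2058 on abdomen arrays and between 725 and 1307 on head/thorax arrays, where 1 of the 3 was above background on every array. In bulk tissue, fewer cells of a type cannot be told apart from less RNA per cell. Control head/thorax replicate 3 read higher than the other head/thorax arrays for some abdomen-rich genes described below, and had the highest background level of all arrays (256), so results that rest on it are also given without it.

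**Figure D1:**
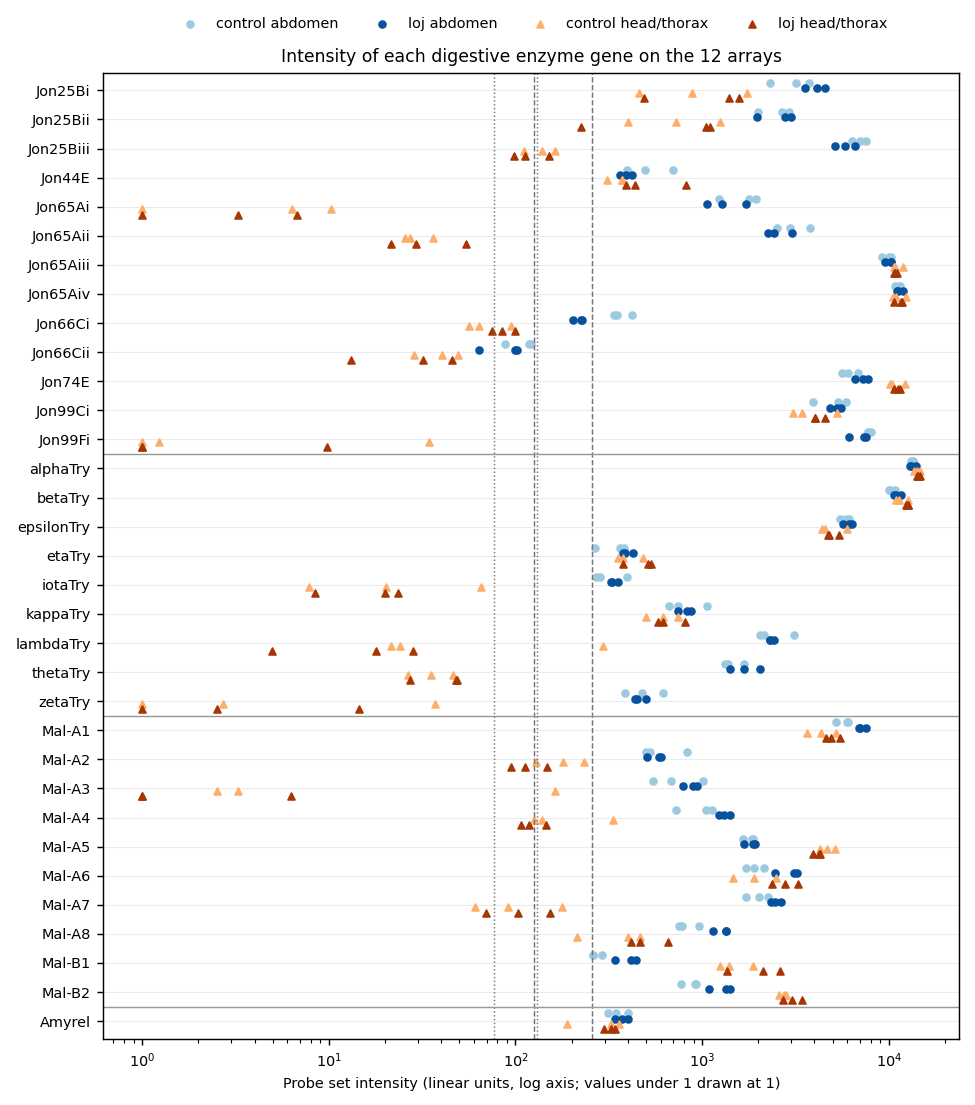
Intensity (x axis, linear units on a log scale, values under 1 drawn at 1) of the 33 digestive enzyme genes (y axis, grouped as Jonah proteases, trypsins, maltases and amylase) on each of the 12 arrays, 1 point per array. Dotted lines mark the lowest and highest background level of the abdomen arrays (76.8 and 131) and dashed lines those of the head/thorax arrays (126 and 256); 18 genes lie above background on all 12 arrays, while Jon99Fi lies above 6150 in every abdomen array and below 35 in every head/thorax array.

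The first comparison asked which digestive enzyme genes are restricted to the main gut-bearing part of the body. The families split. Genes with signal above background in abdomen only and genes with signal above background in both parts stood side by side in every multigene family. In control females 17 members were higher in abdomen, 4 were lower and 12 were not called. The background over all probe sets was 22.6% higher and 33% lower (55.6% either way). In *loj* females the same 17 were higher and the same 4 lower, against 21.5% and 35.1% of all probe sets (56.6% either way). The test was limma on all 12 arrays with 4 group means, and a call needed a Benjamini-Hochberg adjusted p under 0.05 and at least 1.5-fold. By signal alone, 18 members were above background on all 6 head/thorax arrays, 10 on 0 of them and 5 on some, and all 10 undetected members were among the 17.

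Among the Jonah proteases, 8 of 13 were higher in abdomen, 1 was lower and 4 were not called. *Jon99Fi*, a serine endopeptidase gene, read 8059.6, 7718 and 7766 in control abdomens and 7583, 7345 and 6153 in *loj* abdomens, against -0.489, 1.22 and 34.3 in control and -4.60, 9.74 and -5.99 in *loj* head/thorax. Every abdomen array lay far above every head/thorax array. On group means the gap was at least 35.0-fold in controls (adjusted p = 4.40e-06) and at least 43.0-fold in *loj* (adjusted p = 2.95e-06). Such a bound sets the abdomen mean against the lowest signal that counts as above background on the head/thorax arrays, or the gene's own signal where that is higher. The adjusted p beside a bound, here and below, is that of the limma difference with a floor of 1 and does not test the bound. The head/thorax background levels were 206, 214 and 256 in control and 145, 126 and 236 in *loj*, so the bounds cannot be compared between genotypes. *Jon25Biii*, another member of the family, read 7570.3, 7024 and 6335 in control and 6635, 5810.1 and 5184 in *loj* abdomens, and 111, 138 and 162 in control and 97.6, 112 and 152 in *loj* head/thorax. It was not above background on any head/thorax array and was higher in abdomen by at least 31.0-fold in controls (adjusted p = 8.80e-11) and at least 36.0-fold in *loj* (adjusted p = 1.04e-10). *Jon65Ai* and *Jon65Aii* followed the same pattern, with 1065 to 3787 in abdomen and at most 54.0 in head/thorax, and bounds of at least 7.25-fold and 13.6-fold in controls. *Jon66Cii* stayed near background, with 63.4 to 121 on abdomen arrays and at most 49.1 on head/thorax arrays, so no bound above 1 could be given for it. *Jon66Ci* had bounds of only 1.64-fold in controls and 1.34-fold in *loj*, and its values are given with the mutant comparison.

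The other Jonah genes had signal above background in both parts on every array. *Jon65Aiii* read 10338, 10043 and 9234 in control and 10317, 10272 and 9574 in *loj* abdomens, and 10835, 11944 and 10655 in control and 10766, 10679 and 11053 in *loj* head/thorax. *Jon65Aiv* read 11360.1, 11449 and 10858 in control and 11918, 11210.5 and 11133 in *loj* abdomens, and 10949, 12355 and 10564 in control and 11603, 10663 and 11816 in *loj* head/thorax. For both genes the difference between parts stayed within 0.18 on the log2 scale in both genotypes, and neither was called, since *Jon65Aiii* (adjusted p = 0.0215 in controls) stayed under the fold limit. Centring each array on its median moved *Jon65Aiv* to 0.59 in controls and 0.63 in *loj*, and it was then called higher in abdomen in both. Both probe sets are bright, with *Jon65Aiii* at 51.3% to 67.3% and *Jon65Aiv* at 58.7% to 69.6% of the highest value on the same array, and whether probe sets this bright still respond in proportion to RNA was not tested. *Jon99Ci* read 5888, 5348 and 3939 in control and 5521, 5294 and 4855 in *loj* abdomens, and 3054, 5284 and 3442 in control and 4017, 4007 and 4551 in *loj* head/thorax, with overlapping groups in controls and no call (adjusted p = 0.0932 and 0.16). *Jon74E* went the other way, with 6817, 6034 and 5632 in control and 7724, 7306 and 6597 in *loj* abdomens against 10126, 12171 and 10385 in control and 11202, 10653 and 11534 in *loj* head/thorax. All 6 of its head/thorax arrays lay above all 6 abdomen arrays, by -0.82 (SE 0.09) in controls and -0.63 (SE 0.09) in *loj* as abdomen minus head/thorax (adjusted p = 5.10e-06 and 5.44e-05). This call depends on the scale between the parts and was lost under both other scalings tried. *Jon99Ci*, by contrast, was called higher in abdomen in both genotypes under both of them.

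Trypsins divided into 4 genes called higher in abdomen and 5 that were not called on the deposited scale. *alphaTry*, like its relatives an intestinal trypsin, read 13478, 13446 and 13117 in control and 13917, 13234 and 13019 in *loj* abdomens, and 13708, 14797 and 14149 in control and 14117, 14642 and 14421 in *loj* head/thorax. *betaTry* read 10832, 10202 and 10093 in control and 11661, 10922 and 10725 in *loj* abdomens, and 10990.4, 12759.7 and 11314 in control and 12708, 12365 and 12679 in *loj* head/thorax. Their differences between parts were at most 0.18 in size on the log2 scale, too small for a call in either genotype. Their intensities were 55.5% to 83.3% of the highest value on the same array, so the limit stated for *Jon65Aiii* and *Jon65Aiv* holds here too. *epsilonTry* read 6089.8, 5897 and 5450.1 in control and 6324, 6163 and 5702 in *loj* abdomens, and 4406, 5995 and 4575 in control and 4759.9, 4704 and 5446 in *loj* head/thorax, a difference of 0.23 in controls that was not called (adjusted p = 0.0784). Under both other scalings *epsilonTry* was called higher in abdomen in both genotypes. In controls its difference was then 0.82 with median centring and 0.62 with quantile normalization. *kappaTry* and *etaTry* were also above background in both parts on every array. *kappaTry* read 1058, 669 and 747 in control and 739, 833 and 871 in *loj* abdomens, and 499, 741 and 618 in control and 579, 813 and 616 in *loj* head/thorax. *etaTry* read 379.9, 266 and 361 in control and 376, 386 and 424 in *loj* abdomens, and 353, 378 and 484 in control and 378, 511 and 531 in *loj* head/thorax. Both had overlapping parts and were not called in either genotype on the deposited scale, while median centring called *kappaTry* higher in abdomen in both.

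The trypsins called higher in abdomen were *lambdaTry*, *thetaTry*, *zetaTry* and *iotaTry*. *lambdaTry* read 3121, 2037 and 2151 in control and 2304, 2307 and 2439 in *loj* abdomens. In *loj* head/thorax it read 17.8, 28.4 and 4.93, and abdomen exceeded it by at least 14.4-fold (adjusted p = 1.08e-05). In control head/thorax it read 24.0, 21.5 and 296, so replicate 3 alone was above background there. It was called higher in abdomen in controls with that array (adjusted p = 1.44e-04) and without it (adjusted p = 1.31e-06). *thetaTry* lay between 1326 and 2054 in abdomen and did not exceed 48.3 in head/thorax, with bounds of at least 6.49-fold and 10.4-fold. *zetaTry* and *iotaTry* ranged from 270 to 620 in abdomen and were at most 65.4 in head/thorax, so their bounds were lower, at 1.39-fold to 2.84-fold.

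The maltases showed all 3 patterns. *Mal-A7* was not above background on any control head/thorax array. It read 2266, 2015 and 1721 in control abdomens and 61.0, 91.1 and 179 in control head/thorax, a gap of at least 8.87-fold (adjusted p = 3.38e-07). In *loj* it read 2335, 2461 and 2660.3 in abdomen and 69.4, 153 and 103 in head/thorax, where replicate 2 was above background. The level of that array was 126 and that of control replicate 3 was 256, so the genotypes differ here in the level and not in a lower control signal. *Mal-A3* and *Mal-A4* ranged from 546 to 1419 in abdomen and were at most 147 on 5 of the 6 head/thorax arrays, and *Mal-A2* ranged from 499 to 826 against 94.6 to 233. *Mal-A8* was present in both parts and higher in abdomen, reading 967, 779 and 756 in control and 1145, 1339 and 1343 in *loj* abdomens, and 213, 466 and 401 in control and 417, 659 and 467 in *loj* head/thorax. The gap was 2.43-fold in controls (adjusted p = 8.53e-04) and 2.52-fold in *loj* (adjusted p = 6.16e-04), with all abdomen arrays above all head/thorax arrays.

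*Mal-A1* and *Mal-A6* were not called between parts on the deposited scale. *Mal-A1* read 6061, 6012 and 5234 in control and 6940.1, 7556 and 7007 in *loj* abdomens, against 3642, 5193 and 4311 in control and 4599, 5465 and 4927 in *loj* head/thorax, with every abdomen array above every head/thorax array of its genotype and a difference of 0.41 and 0.52, under the 1.5-fold limit. *Mal-A6* read 2144, 1897 and 1720.2 in control and 2462, 3216 and 3091 in *loj* abdomens, and 1461, 2497 and 1892 in control and 2368, 3255 and 2777 in *loj* head/thorax, where the parts overlapped in both genotypes. *Mal-A5*, *Mal-B1* and *Mal-B2* were lower in abdomen. Under both other scalings the 3 kept their calls, with 1 exception. Median centring left *Mal-A5* at -0.57 in *loj*, under the fold limit. *Mal-A5* read 1879, 1852 and 1656 in control and 1922, 1863 and 1676 in *loj* abdomens, against 5139, 4657 and 4269 in control and 4295, 4245 and 3925 in *loj* head/thorax. *Mal-B1* showed the widest gap of the 3, with 289.6, 259 and 262 in control and 417, 343 and 445 in *loj* abdomens against 1244, 1390.0 and 1866 in control and 2123, 2604 and 1363 in *loj* head/thorax. All its head/thorax arrays exceeded all abdomen arrays, and abdomen minus head/thorax was -2.45 (SE 0.21, adjusted p = 7.04e-07) in controls and -2.30 (SE 0.21, adjusted p = 1.32e-06) in *loj*. *Mal-B2* read 915, 772 and 929 in control and 1347, 1406 and 1084 in *loj* abdomens, and 2589, 2811 and 2737 in control and 3039, 3413 and 2721 in *loj* head/thorax, again without overlap.

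The amylase *Amyrel*, a diverged relative of the main amylase genes, was not called between the parts. It read 401, 315 and 345 in control and 370.2, 400.2 and 342 in *loj* abdomens, and 189, 361 and 324 in control and 342, 297 and 324 in *loj* head/thorax, with control replicate 1 below background in head/thorax. The probe set shared by *Amy-p* and *Amy-d*, the main alpha-amylase genes, is outside the rule. It read 5736, 5869.7 and 4807 in control abdomens and 10171, 11407 and 10119.9 in control head/thorax, and 6087, 6418 and 5890.2 against 10622, 10888 and 10968 in *loj*. All head/thorax arrays lay above all abdomen arrays, with abdomen minus head/thorax at -0.95 in controls (adjusted p = 3.323e-07). This call was lost under both other scalings, at -0.36 with median centring and -0.47 with quantile normalization. All 3 *loj* abdomens read above all 3 control abdomens, by 0.17, which was not called (adjusted p = 0.516).

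**Figure D2:**
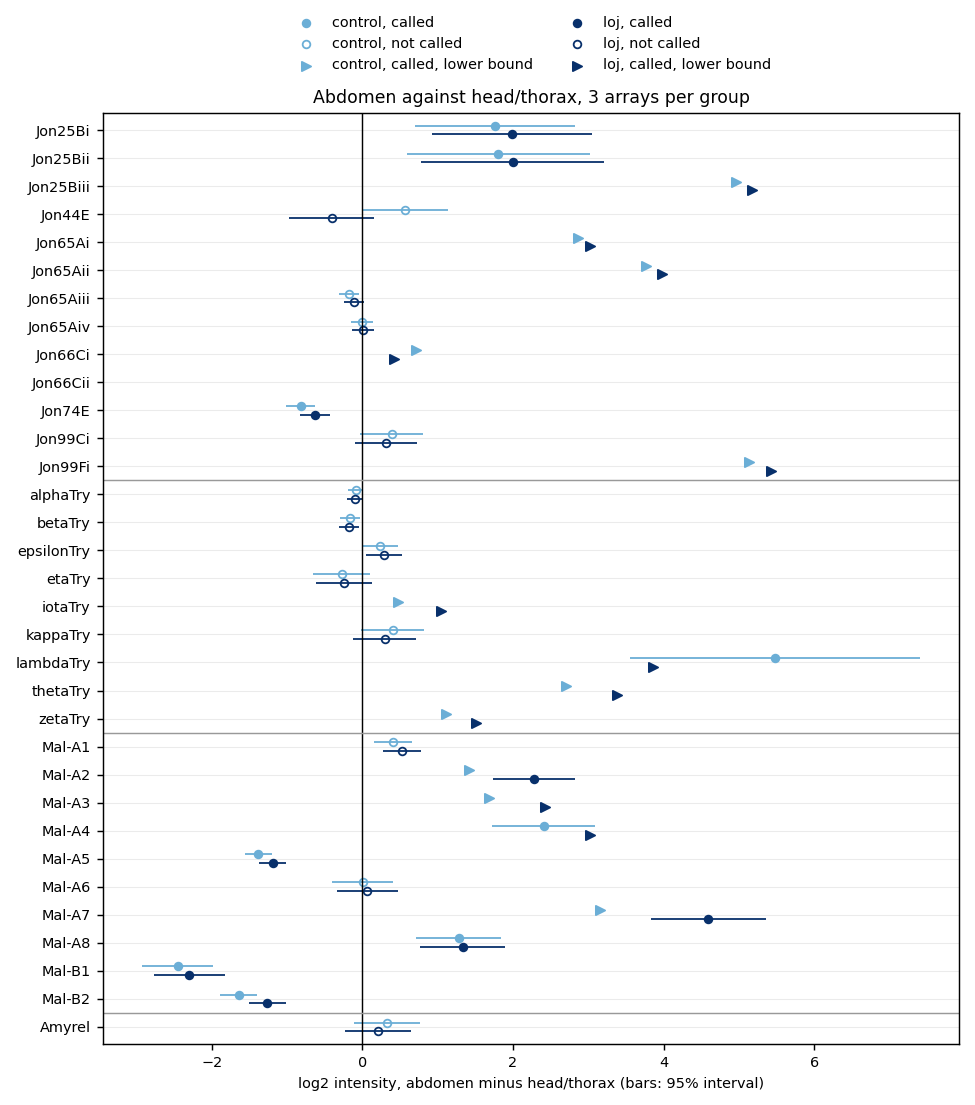
Difference in log2 intensity, abdomen minus head/thorax (x axis), for each digestive enzyme gene (y axis) in control (light) and loj (dark) females, 3 arrays per group, with 95% intervals from limma and filled symbols for called genes. Triangles stand at the log2 of the lower bound of genes above background on 0 head/thorax arrays of that genotype, with Jon99Fi and Jon25Biii farthest right among them; Jon66Cii has no bound and is not drawn, and centring each array on its median moves the median of all probe sets to the right by 0.59 in control and 0.62 in loj.

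How arrays of the parts were scaled to each other is not given, and this bears on members near 0. Centring each array on its median moved the median of all probe sets by 0.59 in controls and 0.62 in *loj*, and quantile normalization by 0.37 and 0.40; the higher share of all calls in controls went from 40.7% to 63.3% and 53.5%, and in *loj* from 38% to 62.7% and 52.1%. The members' split was 25 higher and 3 lower, and 21 and 3, in controls, and 24 and 2, and 20 and 3, in *loj*. Both scalings called *Jon99Ci*, *Mal-A1* and *epsilonTry* higher in abdomen in both genotypes. Median centring alone added *Amyrel*, *Jon65Aiv*, *Mal-A6* and *kappaTry* in both genotypes. *Jon44E* was added in controls only, by either scaling. The lower call of *Jon74E* was lost in both genotypes by either scaling, and that of *Mal-A5* in *loj* by median centring.

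Neighbours on a chromosome often differed. The trypsin genes form a tandem row on arm 2R, in which *lambdaTry*, *zetaTry* and *thetaTry*, all called higher in abdomen, alternate with *kappaTry* and *etaTry* (abdomen minus head/thorax 0.40 and -0.28 in controls), followed by *alphaTry*, *epsilonTry* and *betaTry* (-0.09, 0.23 and -0.17), and *iotaTry*, again called higher, lies at the far end. Of *zetaTry*, *thetaTry* and *iotaTry*, undetected in head/thorax, only the bounds above are known. The signs of *alphaTry*, *betaTry* and *etaTry* turn positive under median centring, while the 4 trypsins called higher in abdomen keep theirs. The 8 Mal-A genes are adjacent to each other, and *Mal-A5* (-1.38) and *Mal-A6* (0.01) sit between *Mal-A4* and *Mal-A7*, both called higher in abdomen. In the Jon65A row the break falls in the middle, with *Jon65Aiv* and *Jon65Aiii* (-0.01 and -0.17) beside *Jon65Aii* and *Jon65Ai*, which were undetected in head/thorax. *gammaTry* and *deltaTry*, which lie between *betaTry* and *iotaTry*, were not analysed here.

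**Figure D3:**
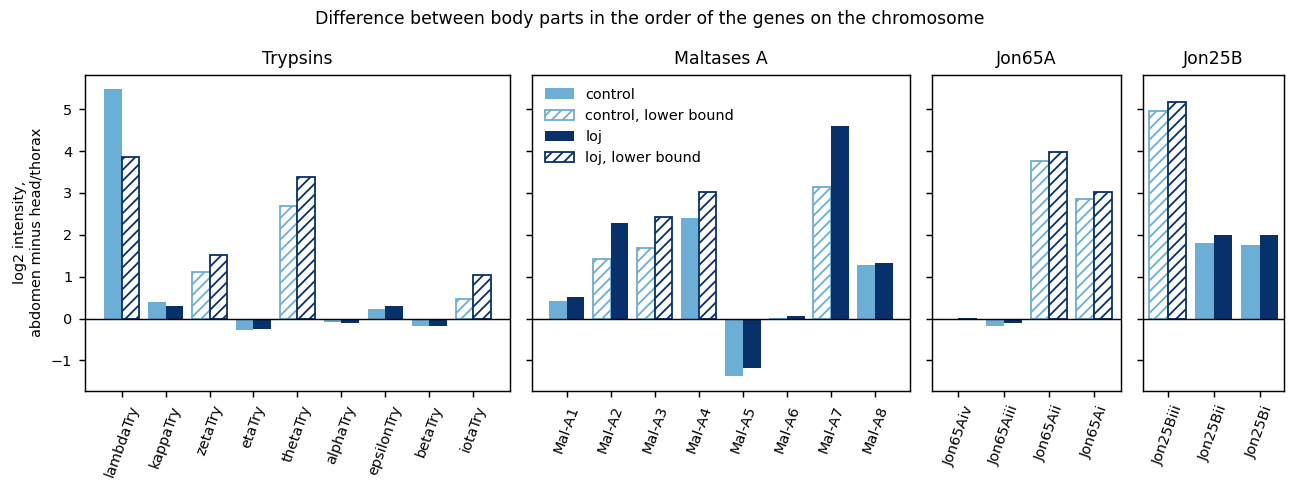
Difference in log2 intensity, abdomen minus head/thorax (y axis, bars from 0), for the members of 4 gene clusters in their order on the chromosome (x axis), in control (light) and loj (dark) females, means of 3 arrays per group; hatched bars show the log2 of a lower bound for genes above background on 0 head/thorax arrays of that genotype. Bars of genes called higher in abdomen alternate with bars near 0 in the trypsin row. Mal-A5 is the only Mal-A gene below 0 in both genotypes on the deposited scale.

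Most digestive enzyme genes above background on all 12 arrays varied more between replicates in head/thorax than in abdomen. Of the 18 members above background on all 12 arrays, 15 had a larger standard deviation of log2 intensity within groups in head/thorax (83.3%), compared with 32.7% of the 5968 probe sets above background on all arrays. Without control head/thorax replicate 3, a check added after seeing the data, the figures were 14 of 18 and 31.9%. Several of these genes are neighbours in a cluster and all were read on the same arrays, so the 18 are not independent. The median standard deviation of these members was 0.159 in abdomen and 0.228 in head/thorax, against 0.126 and 0.092 for all such probe sets. *Jon25Bi* and *Jon25Bii*, neighbouring Jonah genes, varied most. *Jon25Bi* read 457, 1739.7 and 886 in control and 1401, 489.8 and 1572 in *loj* head/thorax, and *Jon25Bii* read 400.4, 1248 and 728 and 1053, 226 and 1101. Control replicate 1 and *loj* replicate 2 were the lowest arrays of their groups for both genes, and control replicate 2 and *loj* replicates 1 and 3 exceeded 1000 for both. In abdomen they read 3203, 3748 and 2300.3 and 4554, 4141 and 3561 for *Jon25Bi* and 2675, 2904 and 2005 and 3000.3, 1974 and 2791 for *Jon25Bii*. Their standard deviations there, 0.284 and 0.303, were smaller than in head/thorax (0.946 and 1.089). They were still above the abdomen median of these members (0.159). Both genes were higher in abdomen in each genotype, by 3.40-fold to 3.98-fold (adjusted p from 0.00328 to 0.013).

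A second pattern concerned control head/thorax replicate 3, and most of it lies under the background level of that array (256). On intensities with a floor of 1, 9 members had a fitted log2 difference of at least 4 between abdomen and head/thorax in controls, a size that the bounds above reach for 2 of them only, *Jon99Fi* and *Jon25Biii*. Of these 9, 7 had their highest head/thorax value on this array, against 27.4% of the 467 probe sets with such a fitted difference. Among gut serine protease genes outside the rule with such a difference it was 4 of 12 (33.3%), near the share of all. *lambdaTry* read 296 there and at most 28.4 on the other 5 head/thorax arrays, and *Mal-A4*, with a smaller fitted difference, 335 against at most 147. *Mal-A3* read 163, under background, against at most 6.25. By contrast *thetaTry*, *Jon65Ai*, *Jon65Aii* and *Jon25Biii* read 46.4, 10.3, 36.3 and 162, near the other arrays, which reached 48.3, 6.73, 54.0 and 152. Of the 467 probe sets, 14 read at least 4 times the highest of the other 5 arrays on control replicate 3, with values under 10 counted as 10, and 0 to 2 did so on each other array. Only 5 of the 14 were above background on replicate 3. With every value under an array's background raised to it, 4 of 467 were at least 1.5-fold above all other arrays on replicate 3 and 0 on each of the others. No member of the 4 families was among these 4. They were picked after their values were seen. They were the lysosomal alpha-mannosidase family genes *LManV* (861 against at most 40.2) and *LManVI* (802 against at most 38.1), *Acbp5*, and a probe set shared by *CG31343*, *Hsp70Bc* and *Hsp70Bb*. Eggshell genes were above background on 0 of the head/thorax arrays, and how this array came by these values was not tested. Without it, 12 members instead of 10 were above background on 0 of the remaining 5 head/thorax arrays, and the same count of 17 higher and 4 lower was called in controls.

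**Figure D4:**
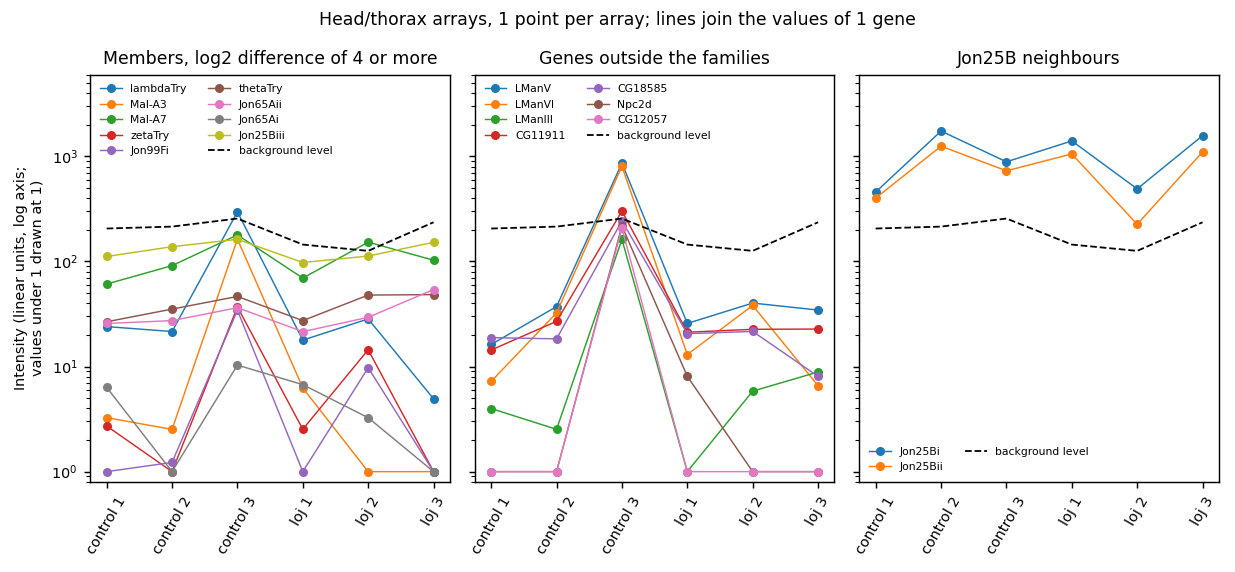
Intensity (y axis, linear units on a log scale, values under 1 drawn at 1) on the 6 head/thorax arrays (x axis) for members with a fitted log2 difference of at least 4 between abdomen and head/thorax (left), genes outside the families (middle) and the Jon25B neighbours (right), with the background level of each array dashed. LManV, LManVI and lambdaTry rise above the background level on control replicate 3 only and Mal-A3 peaks there below it, while Jon25Bi and Jon25Bii are low together on control replicate 1 and loj replicate 2.

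The second comparison asked whether loss of *loj* altered digestive enzyme transcripts in abdomen. In *loj* abdomens 1 member was lower, 0 were higher and 32 were not called, against 0.256% lower and 0.618% higher of all probe sets (0.874% either way). The called gene was the Jonah protease *Jon66Ci*, which read 423, 348 and 337 in control and 226, 204 and 224 in *loj* abdomens. All *loj* arrays lay below all control arrays, and the difference was -0.75 on the log2 scale (SE 0.11, 95% interval -1.02 to -0.49, adjusted p = 0.0465). Head/thorax values were under the background level on every array, 63.8, 56.2 and 95 in control and 74.5, 84.6 and 99.2 in *loj*. The call was marginal: it was lost without any single array of the 6 (adjusted p = 0.0778 to 0.198), with values under 32 set to 32 (0.0817), without the intensity trend (0.101) and with all 12 arrays in 1 fit (0.0541). Its neighbour *Jon66Cii* differed by -0.33 (95% interval -0.91 to 0.26) and was not called.

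Maltase values were mostly higher in *loj* abdomens, but limma called 0 of 10. In 7 of 10, *Mal-A1*, *Mal-A4*, *Mal-A6*, *Mal-A7*, *Mal-A8*, *Mal-B1* and *Mal-B2*, all *loj* arrays exceeded all control arrays, as did 8.96% of all probe sets (19.5% did not overlap in either direction); the 8 Mal-A genes share a cluster and are not independent. Differences were above 0 for 9 of 10, with a median of 0.39 against -0.03 for all probe sets, and 7 had an unadjusted p under 0.05. The share of all probe sets at that unadjusted cutoff is not given, so the 7 have no background beside them. *Mal-A8* read 967, 779 and 756 in control and 1145, 1339 and 1343 in *loj* abdomens, a difference of 0.62 (SE 0.12, 95% interval 0.33 to 0.91) with adjusted p = 0.0902. *Mal-A6*, listed above, differed by 0.60 (95% interval 0.28 to 0.93, adjusted p = 0.117). *Mal-B1* differed by 0.56 (95% interval 0.28 to 0.84, adjusted p = 0.0992) and *Mal-B2* by 0.55 (adjusted p = 0.128). A Cyber-T style regularized test, written after the study's methods but run on the 1 deposited table rather than on 3 extractions of the scans, called at an unadjusted p under 0.001 and 1.5-fold *Mal-A6* and *Mal-A8* besides *Jon66Ci* (background 2.18% of all probe sets). *Mal-A5* had a difference of 0.02 (95% interval -0.18 to 0.22), and *Mal-A2*, at -0.09, was the only maltase below 0. Of the marker genes in the same abdomens, limma called 0 of 3 enterocyte and 0 of 7 eggshell genes in *loj* against control. The enterocyte sums of control (1287 to 1647) and *loj* (1626 to 2058) overlapped, with single genes between -0.20 and 0.52. The eggshell sums were at least 30190 in control and at most 28210 in *loj*, with 2 of the 7 genes above 0 and the others below. Their part in the maltase values was not tested.

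Most proteases and the amylase were not called in *loj* abdomens. Trypsin differences ran from -0.07 to 0.25, and all 9 had overlapping groups. For 7 of 9 trypsins, *Amyrel*, and 7 of 13 Jonah genes the 95% interval lay within a 1.5-fold change either way, as it did for 2 of 10 maltases. The narrowest of these were *alphaTry* (0.00, -0.17 to 0.17) and *Jon65Aiv* (0.02, -0.14 to 0.19), both among the bright probe sets whose response to RNA was not tested. Jonah differences were above 0 for 6 and below 0 for 7, and besides *Jon66Ci* only *Jon99Fi* had groups that did not overlap, by -0.17 (adjusted p = 0.53), against 10.6% of all probe sets with *loj* below control.

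**Figure D5:**
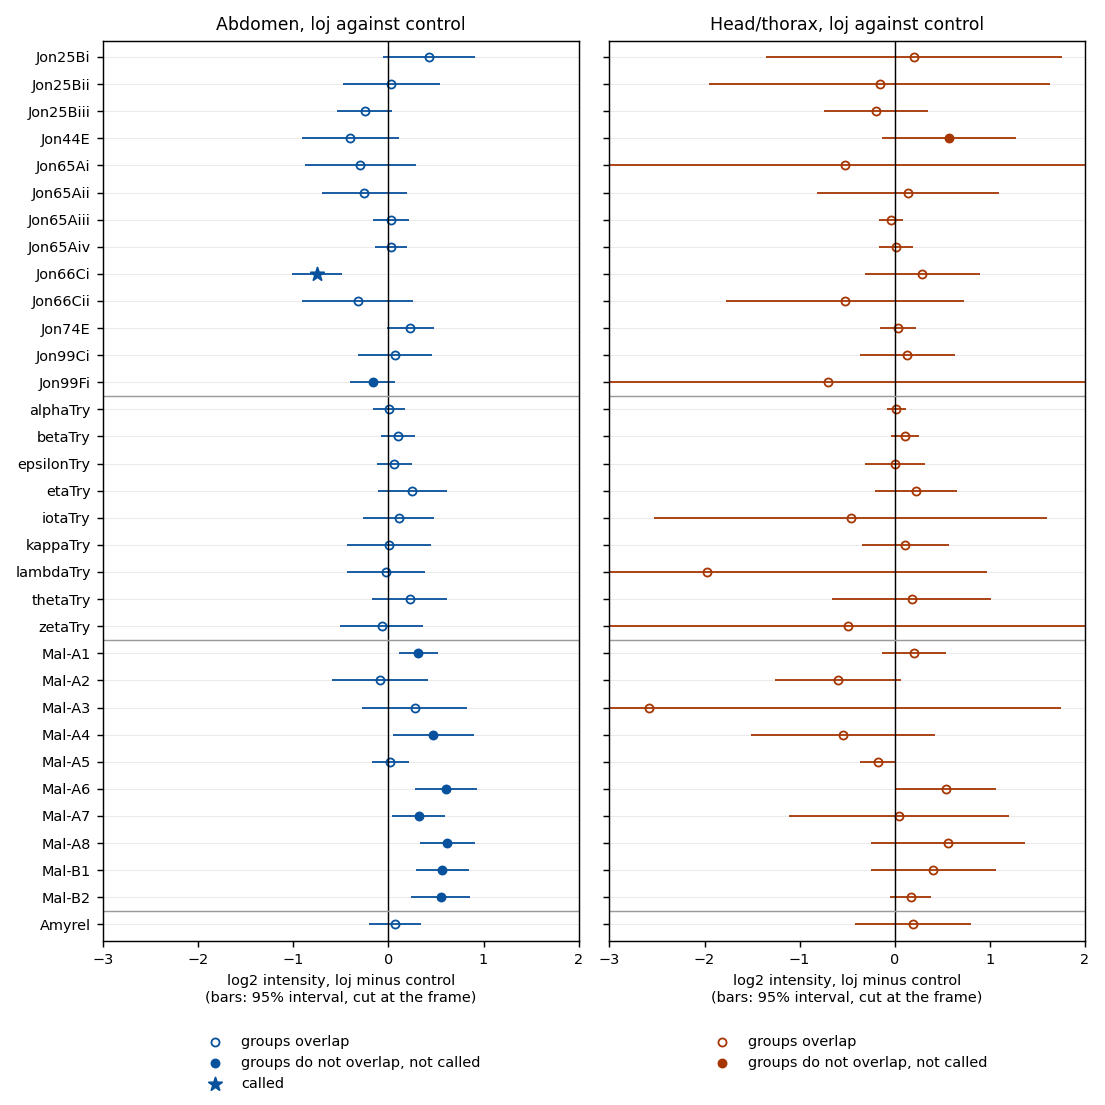
Difference in log2 intensity, loj minus control (x axis), for each digestive enzyme gene (y axis) in abdomen (left) and head/thorax (right), 3 arrays per group, with 95% intervals from limma cut at the frame. Jon66Ci in abdomen is the only called gene (star, -0.75), and filled points mark genes whose groups do not overlap, 7 of them maltases above 0 in abdomen.

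In head/thorax limma called 0 of 33 members in *loj* against control, where it called 1.86% of all probe sets (1.09% higher and 0.778% lower), and the regularized test also called 0 (2.65% of all probe sets). The unadjusted p was under 0.05 for 1 member, *Mal-A6*, at 0.54 (95% interval 0.02 to 1.07, adjusted p = 0.265). *Jon44E*, a Jonah gene present in both parts, was the only member whose groups did not overlap, as happened for 11.3% of all probe sets with *loj* above control and 23.8% either way. It read 311, 371 and 371 in control and 392, 435 and 823 in *loj* head/thorax, where *loj* replicate 3 was well above the rest, and the difference of 0.57 (SE 0.29) had an adjusted p of 0.378 and was 0.24 without that array. In abdomen the same gene read 701, 398 and 492 in control and 422, 389 and 365 in *loj*, with overlapping groups. Intervals lay within a 1.5-fold change for 10 of 33 members, all of them above background on every head/thorax array. For undetected members the intervals were wide, as for *Jon99Fi* (-0.70, -4.72 to 3.32).

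A limma test of the difference between parts, head/thorax minus abdomen, called 0 of 33 members, against 0.506% of all probe sets. An unadjusted p under 0.05 was reached by 4, a cutoff for which no share of all probe sets is given. *Jon66Ci* came closest, with a difference of 1.05 (SE 0.27, adjusted p = 0.165), and it was called without control head/thorax replicate 3 (1.27, adjusted p = 0.0369). It was not above background on any head/thorax array, so an effect of *loj* there was not measured and this difference cannot show one between parts. The estimate was below 0 for all 10 maltases, and for 7 of 10 without that array, while 53.3% of all probe sets were above 0 on all arrays. *Mal-A3* was not above background on any head/thorax array, and *Mal-A2*, *Mal-A4* and *Mal-A7* on 1 each, so their estimates rest on signal mostly under background. *Mal-A6* and *Mal-A8* were each at -0.06, and no consistent effect can be read from the signs.

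Related gut genes outside the families were mostly not called. Over all probe sets, limma called 0.874% in abdomen and 1.86% in head/thorax, and the regularized test 2.18% and 2.65%. No such share is given for an unadjusted p under 0.05, so the counts at that cutoff have no background beside them. Genes called by the regularized test alone were named after their values were seen. That test used the same floor of 1. No sizes are given for these genes, nor whether they lay above background. Of 28 measured serine protease genes of the gut outside the rule, limma called 0 in abdomen (11 at an unadjusted p under 0.05), and the regularized test called 4, *CG31681* and *CG10477* higher and *CG17571* and *CG11911* lower in *loj*. In head/thorax both tests called 1 lower (4 at an unadjusted p under 0.05), *CG31265*, which was not above background on any of those arrays, so that no size is given. Of 13 digestive lipase genes, limma called 0 in abdomen and 1 in head/thorax (4 and 3 at an unadjusted p under 0.05). It was *CG18302*, a lipase family gene, which read 297, 284 and 303 in control and 133, 138 and 124 in *loj* head/thorax (-1.16, adjusted p = 0.003687), without overlap. The regularized test called *CG17192* in abdomen, and *Lip4*, *CG17192* and *CG18302* in head/thorax.

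Of 12 genes for nutrient transport and the brush border, limma called 0 in abdomen and 1 in head/thorax (2 and 4 at an unadjusted p under 0.05). The peptide transporter *yin* was higher, at 384, 338 and 362 in control and 805, 649 and 594 in *loj* (0.91, adjusted p = 0.02164), and the regularized test also called it alone. Of 17 genes for the peritrophic matrix and mucins, limma called 1 in abdomen and 0 in head/thorax (5 and 4 at an unadjusted p under 0.05). The mucin-related gene *Mur29B* was higher, at 904, 768 and 851 in control and 1282, 1588 and 1457 in *loj* abdomens (0.78, adjusted p = 0.0381), again without overlap. The regularized test called *Mur29B* and *Muc11A* in abdomen, and *Peritrophin-15a*, *Peritrophin-15b* and *Mur82C* in head/thorax. Of 10 other glycosidase genes and 12 regulators of the midgut and its enzymes, limma called 0 in either part; in abdomen 3 of each had an unadjusted p under 0.05, in head/thorax 2 of each. The regularized test called 1 glycosidase gene in abdomen, *LManIV*, and 0 in the rest of these lists. Median differences in abdomen were 0.39 for the glycosidases and 0.02 for the proteases outside the rule, against -0.03 for all probe sets.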

How the data were processed

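RNA of the 12 samples was hybridised to Affymetrix arrays, and the authors deposited 1 linear intensity per probe set and array. Their methods use 3 extractions of the scans, by GCOS and by dChip with and without the mismatch probes; the submitters' processing notes list GCOS 1.2. The sources used here do not say which extraction was deposited or how arrays were scaled, and 4546 values (2.02%) are below 0. The number of arrays limits the precision.

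Probe sets were named through the array's platform annotation, which gives 13647 of 18769 probe sets 1 gene symbol, 402 several and 4720 none, after 183 control probe sets were left out. Gene order was taken from RefSeq (assembly Release 6 plus ISO1 MT). After a floor of 1, log2 intensities were fitted with limma 3.58.1 in R 4.3.3 (empirical Bayes with an intensity trend, Benjamini-Hochberg adjustment over all 18769 probe sets), per body part for *loj* against control and over all 12 arrays otherwise. Scripts were tested on simulated data.

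Values in every sample are given for members called in *loj* against control, the 4 of highest mean control abdomen intensity per family, the 3 highest and 3 lowest without overlap per body part, and those above background on all 3 arrays of a head/thorax group. In other lists, called genes are named. The members and lists were chosen with earlier results of these data known. Alternatives were quantile normalization, median centring, other floors, a filter on dim probe sets, no trend, replicate block, all arrays in 1 fit, no fold limit, a Cyber-T style test and each array left out. The pattern of control head/thorax replicate 3 was examined after seeing the data.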

Additional observations from a re-analysis of the deposited data

Results flagged for a closer look

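No digestive enzyme gene of the 4 families passed the test of a different *loj* effect in the 2 body parts. Of the gut genes outside the families that are named above, 2 did. For *CG31265*, a serine protease gene, the fitted effect in head/thorax minus that in abdomen was -3.89 on the log2 scale (adjusted p = 3.51e-04), but all its head/thorax values were under background and those of *loj* were below 0, so this value is made by the floor of 1 and measures no change of level. *Mur29B*, a mucin-related gene, had a difference of -1.17 (adjusted p = 0.00702): it read 904, 768 and 851 in control and 1282, 1588 and 1457 in *loj* abdomens, and 747, 572 and 602 in control and 499, 453 and 502 in *loj* head/thorax.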

How the results depend on the processing

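The count of 1 member called in *loj* abdomens depends on the processing. It was 0 with values under 32 set to 32, without the intensity trend, with a block for replicate number (*Jon66Ci* at adjusted p = 0.125) and with all 12 arrays in 1 fit, 0 to 0 with any of the 6 arrays left out, and 3 (*Jon66Ci*, *Mal-A6* and *Mal-A8*) both with probe sets under the median intensity left out and with the Cyber-T style test. The count of 0 in head/thorax was 0 in every alternative run. The count of 0 for the difference between parts was 0 to 1 over the 12 arrays left out in turn, with 1, *Jon66Ci*, without control head/thorax replicate 3, and 0 in the other alternatives. The 21 members called between parts became 20 to 22 in each genotype with an array left out, and 16 to 28 in controls and 16 to 26 in *loj* over the other settings. Replicate numbers are shared by all groups, but the labels do not say that they mark shared flies or days, and residuals of same-numbered arrays correlated by -0.01 to 0.12 across probe sets, so they were not taken as pairs. In head/thorax every one of the 6 arrays still correlated best with its own number. Across the body parts 5 of 6 control and 4 of 6 *loj* arrays did so, and between the abdomen groups 2 of 6. The tests between parts, fitted as 4 group means, treated the arrays as unpaired. The replicate block changed no other count. Genes near background are limited by the low signal: of the 10 members undetected in head/thorax the difference between parts is known only as a bound, and for *Jon66Cii* not even as one.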
